A study of Mus musculus with 16 samples.

Results

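The genes described here are 36 p53 target genes, measured in bone marrow of irradiated mice with 1-colour Agilent arrays, 1 array per mouse. They were chosen by gene name, as targets of the tumour suppressor p53 that respond to irradiation, from non-control probes of the scanner files. A probe was on the array for all 36, and 35 were tested among 23077 gene names. The groups were 8 KO chimeras and 8 controls, which the labels describe as separate animals. KO chimeras were C57BL/6J mice, lethally irradiated with 950 rad, that received whole marrow of Adrb1tm1BkkAdrb2tm1Bkk/J donors, which lack the beta-1 and beta-2 adrenergic receptors, by 1 retro-orbital injection. The donor to C57BL/6J ratio was 1:4, and the labels do not say whether it counts animals or cells. Controls were C57BL/6J mice that had the same dose of 950 rad, and the labels name no donor for them. Reconstituted mice recovered for 2 to 3 months before marrow was taken. All 16 mice were thus irradiated and none was an unirradiated comparison. Loss of the receptors, the strain background of the donors and the graft itself cannot be told apart in this design, and no label gives the share of marrow cells that came from the donor.

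p53 is a transcription factor that is held at a low level by the ubiquitin ligase Mdm2 and is stabilised when DNA is damaged. It binds paired half-sites near its target genes, which stop the cell cycle, start apoptosis through the mitochondria or death receptors, repair DNA and adjust metabolism, while some targets feed back on p53 itself. Blood-forming marrow is among the tissues most sensitive to radiation, and p53-dependent death of its cells is a known part of acute radiation injury.

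The promoters of the 5 members that were higher in KO chimeras and held a p53 half-site are printed first, with the promoter of Phlda3, the member with the largest difference. Each is the stretch of 250 bases before a RefSeq gene start (mouse build GRCm38.p6), read 5′ to 3′ on the gene's strand, with the half-site (10 bases) in capitals. The half-site reads the same on both strands as a pattern, so a search of 1 strand finds the matches of both.
Cdkn1a, chr17:29090729-29090978, plus strand: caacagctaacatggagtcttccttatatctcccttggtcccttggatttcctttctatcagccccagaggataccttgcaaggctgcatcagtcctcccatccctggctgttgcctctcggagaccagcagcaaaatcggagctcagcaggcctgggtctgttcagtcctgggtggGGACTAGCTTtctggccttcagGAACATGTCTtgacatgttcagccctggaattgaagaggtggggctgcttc
Mdm2, chr10:117710759-117711008, minus strand: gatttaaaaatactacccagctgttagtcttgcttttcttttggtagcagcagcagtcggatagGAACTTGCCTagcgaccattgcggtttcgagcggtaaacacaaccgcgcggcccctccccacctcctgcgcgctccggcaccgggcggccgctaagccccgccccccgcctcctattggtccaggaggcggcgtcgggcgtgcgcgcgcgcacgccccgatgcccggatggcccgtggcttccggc
Ccng1, chr11:40755287-40755536, minus strand: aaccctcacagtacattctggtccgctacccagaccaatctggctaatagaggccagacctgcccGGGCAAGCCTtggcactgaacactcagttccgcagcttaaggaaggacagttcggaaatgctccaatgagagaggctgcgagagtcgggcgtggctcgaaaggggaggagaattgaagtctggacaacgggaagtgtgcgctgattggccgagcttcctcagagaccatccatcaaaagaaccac
Gadd45a, chr6:67037408-67037657, minus strand: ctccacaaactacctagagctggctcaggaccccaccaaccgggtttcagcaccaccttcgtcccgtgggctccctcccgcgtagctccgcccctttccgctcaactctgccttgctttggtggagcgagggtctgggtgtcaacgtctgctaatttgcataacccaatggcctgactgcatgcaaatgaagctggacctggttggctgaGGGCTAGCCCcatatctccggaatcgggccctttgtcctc
Ei24, chr9:36797335-36797584, minus strand: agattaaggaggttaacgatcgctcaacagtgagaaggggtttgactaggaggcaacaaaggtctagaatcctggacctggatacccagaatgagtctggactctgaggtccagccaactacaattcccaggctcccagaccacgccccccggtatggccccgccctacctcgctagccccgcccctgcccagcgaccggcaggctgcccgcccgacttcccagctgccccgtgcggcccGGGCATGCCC
Phlda3, chr1:135765835-135766084, plus strand: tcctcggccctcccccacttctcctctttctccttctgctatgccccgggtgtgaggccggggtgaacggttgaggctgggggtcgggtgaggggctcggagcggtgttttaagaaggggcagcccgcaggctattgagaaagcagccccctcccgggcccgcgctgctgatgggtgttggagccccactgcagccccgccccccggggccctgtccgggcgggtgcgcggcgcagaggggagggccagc
A half-site lay in this window in 12 of the 28 members with a promoter entry (42.9%), against 2216 of 27025 genes (8.20%). Paired half-sites with a spacer of 0 to 13 bases were found in Cdkn1a alone of these 28 members, at the more upstream of its 2 listed starts, and in 18 genes of all (0.0666%). Of the members with an entry, 5 of 7 that were higher, 2 of 3 that were lower (Trp53 and Polk) and 5 of 17 that were tested and did not pass held a half-site. Phlda3 and Bbc3 had the largest differences of the members, each read from its probe with the highest mean. Neither they nor Ephx1 had a half-site in this window. These matches describe letters and not binding, and no match says only that the pattern is not in these 250 bases.

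Levels are given as log2 of the processed signal over the array's 75th percentile, so that 0 is a signal equal to that percentile. Each difference is the KO chimera mean less the control mean on this log2 scale, with the standard error of the limma fit, and a gene was called at an adjusted p under 0.05 over all gene names tested. The p-values measure the spread between mice. The 75th percentile of the raw signal was 127 to 545 on KO chimera arrays and 231 to 558 on control arrays, and KO chimeras 1 to 4 were the dimmest of their group. Of 10 defining markers of blood-forming marrow all 10 were above background, and summed to 2059 to 2628 times the 75th percentile in KO chimeras and 2079 to 2427 in controls. Of these 10, 1 was lower, Kit by -0.90 ± 0.09, and 1 was higher, Spi1 by 0.96 ± 0.15 (limma adjusted p = 1.45e-06 and 1.31e-04). Neither of them overlapped between the groups. Adrb1, 1 of the receptors that the donors lack, had a mean log2 level of -2.49 in KO chimeras and -2.49 in controls, with a 95% interval of the difference of -0.22 to 0.22. The labels do not say which part of the gene is missing in the donors, so its probe does not check the labels.

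Of the 35 tested members, 7 were higher in KO chimeras, 3 were lower and 25 did not pass. Of these 25, Btg2, Sesn1, Trp53inp1 and Ddb2 (4 genes) had an unadjusted p under 0.05. The share called was 28.6%, against 22.3% of all gene names. The share higher was 20%, against 10.2% of all gene names, and the share lower was 8.57%, against 12%. The 2 sets of mice did not overlap in 3 members (8.57%), namely Phlda3, Bbc3 and Ei24, against 6.13% of all gene names. In these 3 every KO chimera lay above every control, which held for 2.87% of all gene names. The median difference of the 35 members was 0.045 on the log2 scale, against -0.019 over all gene names, and the median size of the difference was 0.23 against 0.19. The share called thus lay near that of all genes. Each of the 35 was above background on all 16 arrays. Eda2r, a receptor of the tumour necrosis factor family, was above background on 0 of the 16 arrays with both of its probes and has only a bound. Without the 5 arrays whose 75th percentile was under 250 (KO chimeras 1 to 4 and control 4), an alternative chosen after seeing the data, 6 members were higher and 0 were lower. In that setting 3639 of 23075 gene names were called, and 44.3% of these were higher. Within scan day 1, with 4 mice a group, 4 of the 35 members were called, against 1609 of 23055 gene names (6.98%). Within scan day 2, 4 of the 35 were called, against 2315 of 23058 (10%).

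**Figure D1:**
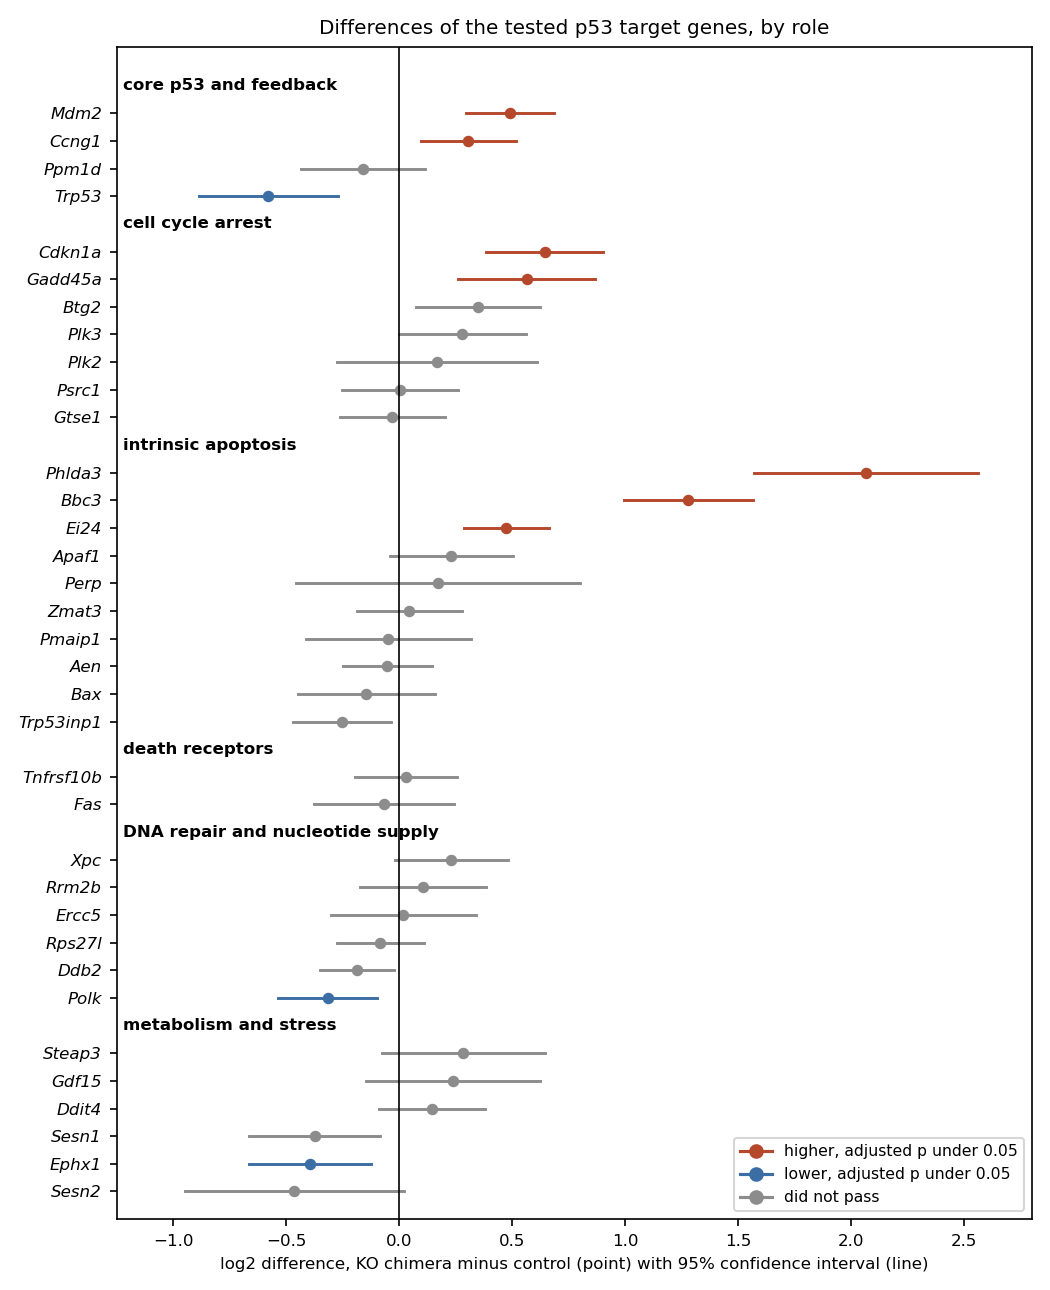
Difference of each of the 35 tested members between KO chimeras and controls, in log2 units (point, positive where KO chimeras were higher), with its 95% confidence interval (line), grouped by role. Colour marks the 7 members higher and 3 lower at an adjusted p under 0.05, and Phlda3 and Bbc3 lie farthest from 0.

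Among the genes of the p53 core and its feedback, 2 of 4 were higher, 1 was lower and 1 did not pass. Trp53, which encodes p53, was lower in KO chimeras. Its level was -1.61 at the lowest, -0.97 at the median and -0.71 at the highest in KO chimeras, against -0.94, -0.44 and -0.23 in controls (lowest, median, highest). The 4 KO chimeras below every control were KO chimeras 1 to 4, and the rest overlapped the 2 lowest controls. The difference was -0.58 ± 0.15 (limma adjusted p = 0.0081). It was -0.72 ± 0.18 within scan day 1 and -0.43 ± 0.22 within scan day 2, where the limma adjusted p was 0.276. The 4 lowest mice are those with the dimmest arrays of their group, at a 75th percentile of 127 to 232, and without the 5 dim arrays the difference was -0.28 ± 0.13 (limma adjusted p = 0.179). With array brightness (log2 of the 75th percentile) as a covariate over all 16 arrays, it was -0.47 ± 0.13 and still passed (limma adjusted p = 0.0181).

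Mdm2, the ubiquitin ligase that limits p53, was higher. Its level was 4.48, 4.89 and 5.02 in KO chimeras (lowest, median, highest), against 4.08, 4.36 and 4.61 in controls. All KO chimeras but KO chimera 7 lay above every control. The difference was 0.49 ± 0.09, a fold of 1.41 with a 95% interval of 1.23 to 1.61 (limma adjusted p = 0.0010). It was 0.55 within scan day 1 and 0.43 within scan day 2, where the limma adjusted p was 0.0906.

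Ccng1, cyclin G1, which takes part in the Mdm2 feedback, had 1.10, 1.25 and 1.76 in KO chimeras, against 0.81, 1.03 and 1.23 in controls. Only 4 KO chimeras lay above the highest control. The difference was 0.31 ± 0.10, a fold of 1.24 (limma adjusted p = 0.0332). The call ended without KO chimera 3 or 7 or control 1, 5, 6 or 8, with differences of 0.28 to 0.30 and limma adjusted p of 0.0501 to 0.0678. It also ended with no filter on dim probes (0.0624), with brightness as a covariate at 0.27 (0.0769), without the 5 dim arrays at 0.25 (0.0972) and within scan days 1 and 2 at 0.28 and 0.33 (0.369 and 0.0755). Ppm1d, the phosphatase Wip1 that dampens the damage response, differed by -0.16 ± 0.13 and did not pass (limma adjusted p = 0.424).

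Of the 7 cell cycle arrest genes, 2 were higher, 0 were lower (0 also at an unadjusted p under 0.05) and 5 did not pass, with a median difference of 0.28. Cdkn1a, which encodes the cyclin-dependent kinase inhibitor p21, was -0.17, 0.39 and 0.69 in KO chimeras (lowest, median, highest), against -0.55, -0.28 and -0.0054 in controls. All but KO chimeras 3 and 7 lay above every control, and each KO chimera lay above the control median. The difference was 0.64 ± 0.12, a fold of 1.56 with a 95% interval of 1.31 to 1.87 (limma adjusted p = 0.0010). It was 0.79 within scan day 2 and 0.50 within scan day 1, where the limma adjusted p was 0.139.

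Gadd45a, a growth arrest and stress protein that binds cell cycle kinases, was 4.75, 5.08 and 5.50 in KO chimeras, against 3.98, 4.66 and 4.83 in controls. Controls 7 and 8 were far below the other controls, at 3.98 and 4.10, and 6 KO chimeras lay above every control. The difference was 0.56 ± 0.14, a fold of 1.48 (limma adjusted p = 0.0092). It was positive on 4 of the 5 slides that held both groups, from -0.082 to 1.01. The call ended within scan day 1 at 0.74 (limma adjusted p = 0.0589), within scan day 2 at 0.39 (0.256) and without the 5 dim arrays at 0.39 (0.162).

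The 5 arrest genes that did not pass ran from -0.030 to 0.35. Btg2, an antiproliferative protein, had 5.12, 5.33 and 5.76 in KO chimeras, against 4.62, 5.15 and 5.36 in controls, a difference of 0.35 ± 0.13 (limma adjusted p = 0.0641). It passed without KO chimera 3, KO chimera 6 or control 5, at limma adjusted p of 0.0440 to 0.0496, with the authors' values (0.0423) and with a variance trend (0.0473). With the replicate number as a block Btg2 passed as well (limma adjusted p = 0.0286). The polo-like kinases Plk3 and Plk2 differed by 0.28 ± 0.13 and 0.17 ± 0.21, with groups that overlapped. Psrc1 and Gtse1, both microtubule-associated proteins, differed by 0.0030 and -0.030, with 95% intervals of -0.25 to 0.26 and -0.26 to 0.20.

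With each gene read from its probe with the highest mean, intrinsic apoptosis held the largest differences. Of its 10 genes, 3 were higher, 0 were lower and 7 did not pass. Phlda3, a membrane-binding protein that represses the survival kinase Akt, was -0.30, 0.97 and 1.33 in KO chimeras (lowest, median, highest), against -1.87, -1.31 and -0.90 in controls. Every KO chimera lay above every control, KO chimeras 1 and 2 stood well below the other KO chimeras at -0.17 and -0.30, and the rest were at 0.61 or more. The difference was 2.07 ± 0.24, a fold of 4.19 with a 95% interval of 2.97 to 5.91 (limma adjusted p = 6.12e-06). It was 1.87 and 2.26 within scan days 1 and 2 and ran from 1.72 to 2.98 over the 5 slides that held both groups.

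Bbc3, which encodes the BH3-only protein Puma that triggers the mitochondrial pathway, was 2.09, 2.72 and 2.96 in KO chimeras, against 1.10, 1.29 and 1.81 in controls. The groups did not overlap, and the lowest KO chimera lay 0.28 above the highest control. The difference was 1.28 ± 0.14, a fold of 2.43 with a 95% interval of 1.99 to 2.96 (limma adjusted p = 2.56e-06). It was 1.11 and 1.45 within scan days 1 and 2 and 0.86 to 1.76 over the slides. Phlda3 and Bbc3 were the only members called in each of the 34 alternative settings tried.

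Ei24, an endoplasmic reticulum protein tied to autophagy and growth suppression, was -0.63, -0.53 and -0.10 in KO chimeras, against -1.01, -0.93 and -0.71 in controls. The groups did not overlap, though the gap between the lowest KO chimera and the highest control was only 0.079. The difference was 0.47 ± 0.09, a fold of 1.39 (limma adjusted p = 9.80e-04). It was 0.42 within scan day 2 and 0.52 within scan day 1, where the limma adjusted p was 0.0815, and without the 5 dim arrays it was 0.31 ± 0.08 (limma adjusted p = 0.0177).

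**Figure D2:**
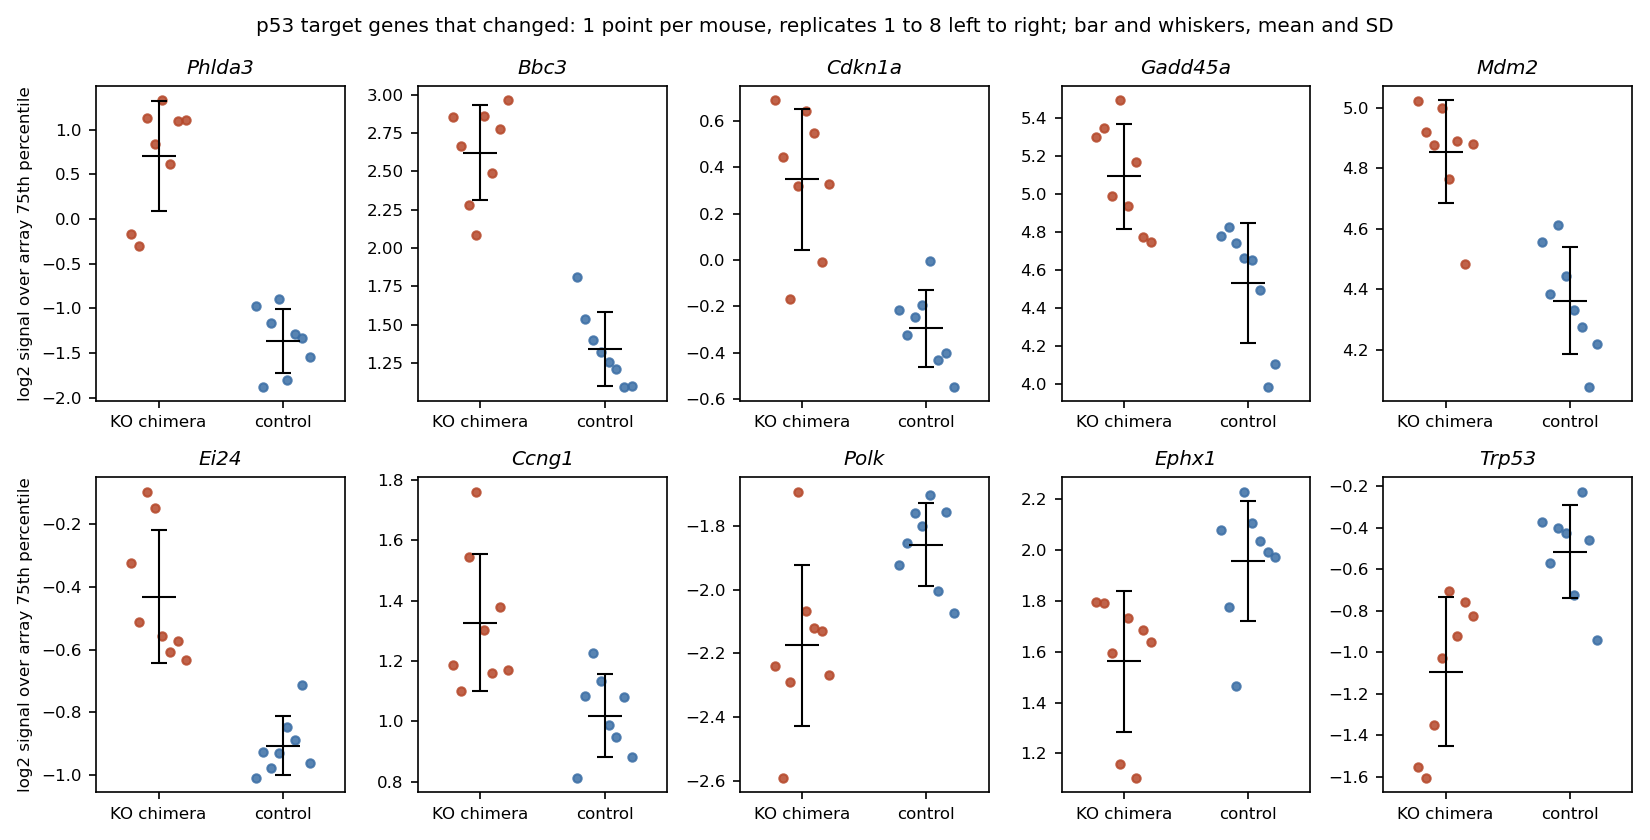
Level of the 10 members that passed, as log2 signal over the array's 75th percentile, with 1 point per mouse (replicates 1 to 8 run left to right), KO chimeras left and controls right, and mean and SD as bar and whiskers. Phlda3, Bbc3 and Ei24 show no overlap, and in Trp53 the 4 lowest points are KO chimeras 1 to 4.

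The other 7 apoptosis genes ran from -0.25 to 0.23. Bax, the pore-forming protein that Puma acts on through the Bcl2 family, had 2.17, 2.70 and 3.13 in KO chimeras, against 2.55, 2.83 and 3.17 in controls, with groups that overlapped. Its difference was -0.15 with a 95% interval of -0.45 to 0.16 (limma adjusted p = 0.520). Pmaip1, which encodes the BH3-only protein Noxa, differed by -0.048 with an interval of -0.41 to 0.32. Apaf1, the apoptosome scaffold, differed by 0.23 ± 0.13, the RNA-binding protein gene Zmat3 by 0.045 ± 0.11 and the nuclease gene Aen by -0.053 ± 0.09. Perp, a desmosomal protein linked to apoptosis, spread widely among KO chimeras, from -1.23 to 1.45, against -0.93 to 0.28 in controls, and differed by 0.17 ± 0.30. Trp53inp1, a stress protein that acts in autophagy and cell death, differed by -0.25 ± 0.10 (limma adjusted p = 0.0925), and passed without KO chimera 4 at -0.30 (0.0315) and with brightness as a covariate at -0.31 (0.0447).

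None of the 2 death receptors tested was called by limma, and neither had an unadjusted p under 0.05. Fas, the receptor of Fas ligand, was 0.56, 0.96 and 1.81 in KO chimeras, against 0.83, 1.06 and 1.31 in controls, with an interval of the difference of -0.38 to 0.24. Tnfrsf10b, the mouse receptor of Trail, was -1.43, -1.13 and -0.68 in KO chimeras, against -1.36, -1.13 and -0.83 in controls, with an interval of -0.20 to 0.26. In both genes the control values fell inside the range of the KO chimeras.

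Of 6 genes of DNA repair and nucleotide supply, 0 were higher, 1 was lower and 5 did not pass. Polk, a polymerase that copies past DNA lesions, was -2.59, -2.18 and -1.69 in KO chimeras, against -2.07, -1.83 and -1.70 in controls. Below every control lay 6 KO chimeras, while KO chimera 4 lay just above the highest control. The difference was -0.32 ± 0.10 (limma adjusted p = 0.0373), and the call ended without KO chimera 1, 2, 3 or 8 or control 1, 2, 3, 4, 5 or 7, with differences of -0.33 to -0.26 and limma adjusted p of 0.0506 to 0.0675. It also ended with slide as a block at -0.32 (0.0818), with brightness as a covariate (0.0573), with no filter on dim probes (0.0681), with the mean of its probes at -0.25 (0.0780), without the 5 dim arrays at -0.28 (0.0602) and within scan days 1 and 2 at -0.42 and -0.21 (0.223 and 0.207). With normexp background correction and quantile normalization the difference was -0.16 ± 0.07 (limma adjusted p = 0.127). Of the nucleotide excision repair genes, Ddb2 and Xpc, which recognise lesions, differed by -0.19 ± 0.08 and 0.23 ± 0.12, and Ercc5, which cuts the damaged strand, by 0.019 ± 0.15. Rrm2b, the ribonucleotide reductase subunit that p53 induces, differed by 0.11 ± 0.13, and the ribosomal protein paralogue Rps27l by -0.084 ± 0.09. These 5 genes had limma adjusted p of 0.0941 to 0.950.

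Of 6 genes of metabolism and stress, 0 were higher, 1 was lower and 5 did not pass, with a median difference of -0.11. Ephx1, a microsomal epoxide hydrolase, was 1.10, 1.66 and 1.79 in KO chimeras, against 1.46, 2.01 and 2.23 in controls. KO chimeras 4 and 6 lay below every control, and 6 controls lay above every KO chimera. The difference was -0.39 ± 0.13 (limma adjusted p = 0.0334), and the call ended without KO chimera 4 or 6 or control 1, 4, 5, 6 or 7, with differences of -0.39 to -0.33 and limma adjusted p of 0.0538 to 0.0658. It also ended with quantile normalization at -0.36 (0.0659), with the authors' values at -0.36 (0.0671), with the mean of its probes at -0.25 (0.106), with brightness as a covariate at -0.40 (0.0515), with no filter on dim probes (0.0598), without the 5 dim arrays at -0.38 (0.118) and within scan days 1 and 2 at -0.54 and -0.25 (0.190 and 0.153). With the replicate number as a block the Ephx1 call ended too (limma adjusted p = 0.0748). The difference was negative on all 5 slides that held both groups.

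The sestrins, which restrain growth signalling and oxidative stress, lay lower without passing. Sesn1 was 1.31, 1.75 and 2.30 in KO chimeras, against 1.86, 2.08 and 2.60 in controls, and 6 KO chimeras lay below every control. Its difference was -0.37 ± 0.14 (limma adjusted p = 0.0601), which passed without KO chimera 3 at -0.45 ± 0.12 (0.0157) and without KO chimera 7 at -0.41 ± 0.14 (0.0456). It also passed with slide as a block at -0.45 ± 0.11 (0.0165), with slide as a random block at -0.39 ± 0.12 (0.0257) and with a variance trend (0.0490). Sesn2 was 1.64, 1.72 and 2.07 in KO chimeras, against 1.80, 2.04 and 3.90 in controls, and differed by -0.46 ± 0.23 (limma adjusted p = 0.167). Without control 8, which held the value of 3.90, it differed by -0.23 ± 0.08 (limma adjusted p = 0.0634). Ddit4, an inhibitor of the growth kinase mTOR, and Gdf15, a secreted stress cytokine, differed by 0.14 ± 0.11 and 0.24 ± 0.18.

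Counted mouse by mouse, 4 to 7 of the 7 higher members lay above the highest control in each KO chimera. KO chimera 7 had the fewest, with 4, then KO chimera 8 with 5. Of the 3 lower members, at most 2 lay below the lowest control in any KO chimera, and KO chimera 5 had 0. Set against the other controls, each control had 0 to 2 of the higher members above the highest. Below the lowest of them each control had 0 to 2 of the lower members. The members were called in these same mice, so the counts describe single mice and are no further test.

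Several members had more than 1 probe. Of 46 probes of the members, 42 were above background often enough to be tested, and 12 of these passed (28.6%, against 23.5% of all probes). In 7 members more than 1 probe was tested, and in 5 of the 7 all probes had the same sign. The sequences of the Steap3 and Cdkn1a probes are shown because the size or direction of the result depended on the probe. The first 30 of their 60 bases, 5′ to 3′, were:
Steap3, A_55_P2096887: atcctcttcttggggcaaccctccccttgg
Steap3, A_55_P2096883: aaccgcagactcaccaagatacgcaggggc
Cdkn1a, A_51_P363947: ctaagggagctcacaggacactgagcaatg
Cdkn1a, A_55_P1976204: tggggtagtttccatagtgacccgggtcct
Steap3, a ferrireductase of endosomes that was named as a p53-induced gene, was read in the main comparison from its probe with the higher mean, at chr1:122123244-122123303 on the minus strand (mm9). That probe had 0.25, 1.11 and 1.43 in KO chimeras (lowest, median, highest), against 0.43, 0.74 and 0.89 in controls, a difference of 0.28 ± 0.17 that did not pass (limma adjusted p = 0.262 over all probes). Its 3 lowest KO chimera values were those of KO chimeras 1, 2 and 4, whose arrays were dim, and without the 5 dim arrays the difference was 0.65 ± 0.12 (limma adjusted p = 0.0026). With brightness as a covariate it was 0.44 ± 0.14 (limma adjusted p = 0.0372).

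The other Steap3 probe, 1025 bases away at chr1:122124269-122124328, moved the other way. It had -1.84, -0.59 and -0.050 in KO chimeras, against -0.079, 1.36 and 1.55 in controls. Control 5 alone, at -0.079, lay inside the range of the KO chimeras, and the other controls were at 1.20 or more. The difference was -2.04 ± 0.27, a fold of 4.11 higher in controls (limma adjusted p = 3.08e-05). On this probe too the lowest values were those of KO chimeras 1, 2 and 4, at -1.48, -1.84 and -1.32. The part of array brightness in the size of this difference was not tested. With the mean of both probes Steap3 was lower in KO chimeras, by -0.88 ± 0.21 (limma adjusted p = 0.0058). The probes thus give no common direction for Steap3, and the cause was not tested.

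Both tested Cdkn1a probes were higher in KO chimeras. The probe of the main comparison lies at chr17:29237377-29237436 on the plus strand (mm9), and the dimmer at chr17:29235299-29235358. The dimmer probe had -3.27, -2.25 and -1.26 in KO chimeras, against -4.06, -3.49 and -3.26 in controls, and differed by 1.39 ± 0.25, a fold of 2.62 (limma adjusted p = 5.82e-04). All KO chimeras but KO chimera 7 lay above every control. A further Cdkn1a probe was above background on 3 KO chimera and 2 control arrays and was not tested. Trp53inp1 also had probes of opposite sign, at -0.25 ± 0.10 and 0.42 ± 0.16, and neither passed (limma adjusted p = 0.0928 and 0.0766 over all probes). The second probes of Ephx1 and Polk kept the sign of the main probe, at -0.10 ± 0.11 and -0.18 ± 0.19, without passing.

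**Figure D3:**
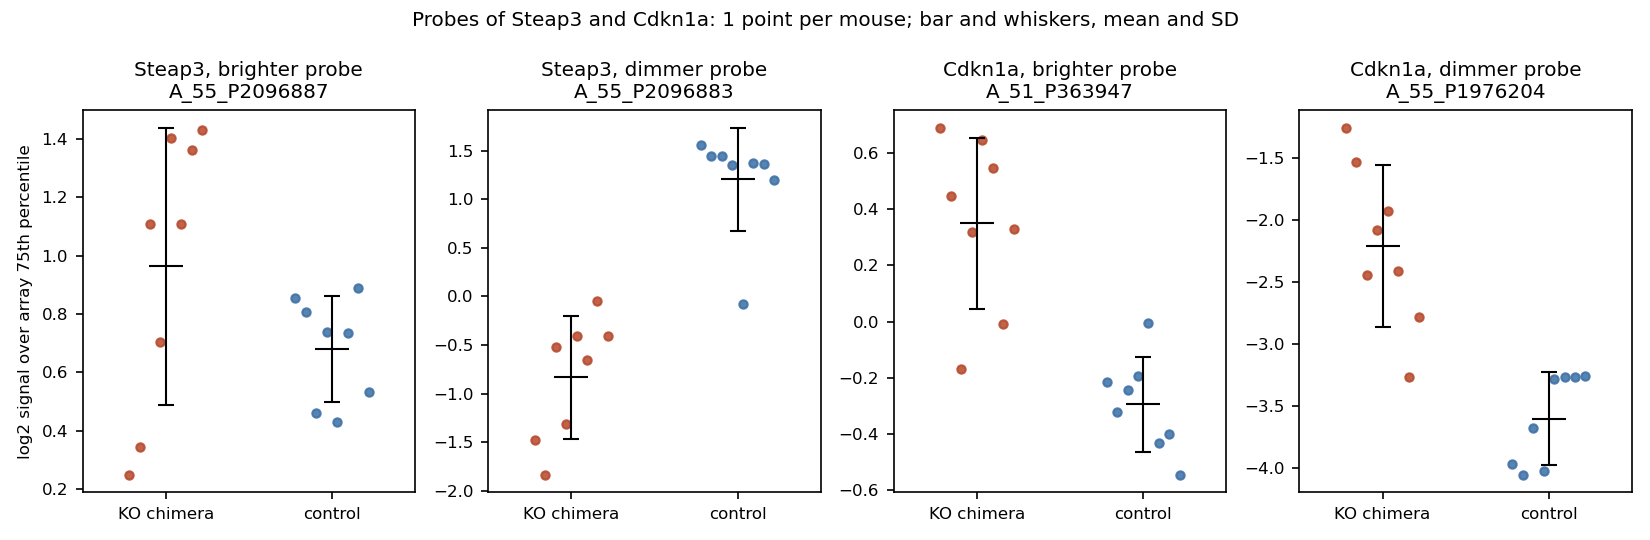
Levels from the tested probes of Steap3 and Cdkn1a, as log2 signal over the array's 75th percentile, 1 point per mouse, KO chimeras left and controls right, with mean and SD. The Steap3 probes run in opposite directions, with control 5 apart on the dimmer one, and both Cdkn1a probes are higher in KO chimeras.

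Genes around the pathway were counted from lists of textbook knowledge. Like the members, these lists were chosen with earlier results of these data known, so their shares describe them and test nothing. Of 26 upstream regulators and cofactors of p53, 0 were higher (2 at an unadjusted p under 0.05) and 4 were lower (15.4%, against 12% of all gene names). The lowest p belonged to Ppp1r13b, which encodes the p53 cofactor Aspp1, at -0.59 ± 0.10, followed by the acetyltransferase gene Ep300 at -0.57 ± 0.13 and Rad50, a sensor of DNA breaks, at -0.37 ± 0.09 (limma adjusted p = 5.21e-04, 0.0031 and 0.0081). Ppp1r13b was 0.93, 1.41 and 1.62 in KO chimeras, against 1.70, 1.96 and 2.36 in controls, with no overlap.

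A second list of 43 p53 targets, not among the 36 members, had 35 tested genes, with a median of -0.18. Of these, 2 were higher (5.71%, against 10.2% of all gene names) and 9 were lower (25.7%, against 12%). The members leaned the other way, with 20% higher and 8.57% lower. The gene 9030617O03Rik was lower by -0.89 ± 0.11 and Pml, which encodes the nuclear body protein, by -0.50 ± 0.09, while Zfp365 was higher by 1.20 ± 0.24 (limma adjusted p = 1.75e-05, 4.73e-04 and 0.0015). Pml was 2.39, 2.58 and 2.94 in KO chimeras, against 2.96, 3.07 and 3.24 in controls, with no overlap.

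For 31 cell cycle genes that the p21 pathway represses through the DREAM complex, the median was -0.025. Of these, 5 were higher (16.1%, against 10.2% of all gene names) and 2 were lower (6.45%, against 12%). Bub1b, a spindle checkpoint kinase, was higher by 0.53 ± 0.09, Top2a, a topoisomerase of dividing cells, lower by -0.30 ± 0.09 and Cdc25c, a mitotic phosphatase, higher by 0.33 ± 0.11 (limma adjusted p = 5.27e-04, 0.0244 and 0.0364).

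In 3 lists of other stress responses the shares higher lay above the 10.2% of all gene names. The shares lower were 0, 5.26% and 12.5%, against 12% of all gene names. As the lists were chosen with earlier results known, the shares cannot rank these responses. Of 19 immediate early genes, which include the members Btg2, Plk2 and Plk3, 9 were higher (47.4%) and 0 were lower in limma (0 at an unadjusted p under 0.05), with a median of 0.38. Ier2 was higher by 1.22 ± 0.11, the transcription factor gene Atf3 by 1.44 ± 0.17 and the phosphatase gene Dusp1 by 0.81 ± 0.11 (limma adjusted p = 5.43e-07, 7.61e-06 and 4.07e-05). Their summed linear signal was 1079 to 1606 times the 75th percentile in KO chimeras and 701 to 1155 in controls. Of 19 genes of NF-kB and inflammation, 9 were higher (47.4%) and 1 was lower, with a median of 0.45 and summed signals of 320 to 601 in KO chimeras and 154 to 257 in controls. Tnfaip3, a feedback inhibitor of NF-kB, was higher by 2.03 ± 0.22 and the chemokine gene Ccl2 by 1.43 ± 0.18 (limma adjusted p = 3.24e-06 and 2.39e-05). Cxcl1, another chemokine gene, is among the 9, but only 2 control arrays read it above background (all 8 did among KO chimeras), so that it was kept through the KO chimeras alone and the size of its difference is not measured. Of 16 genes of the ATF4 stress response, which include the members Ddit4, Gdf15 and Sesn2, 4 were higher (25%) and 2 were lower (12.5%). They were led by Ddit3 at 0.74 ± 0.10, Chac1 at -1.03 ± 0.14 and Atf5 at 0.46 ± 0.10 (limma adjusted p = 3.04e-05, 4.33e-05 and 0.0039). The other lower gene, Vldlr, was above background on 3 KO chimera and 6 control arrays (limma adjusted p = 0.0492). It was thus kept through the controls alone, and the size of its difference is not measured. The part of these responses in the levels of the members was not tested.

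**Figure D4:**
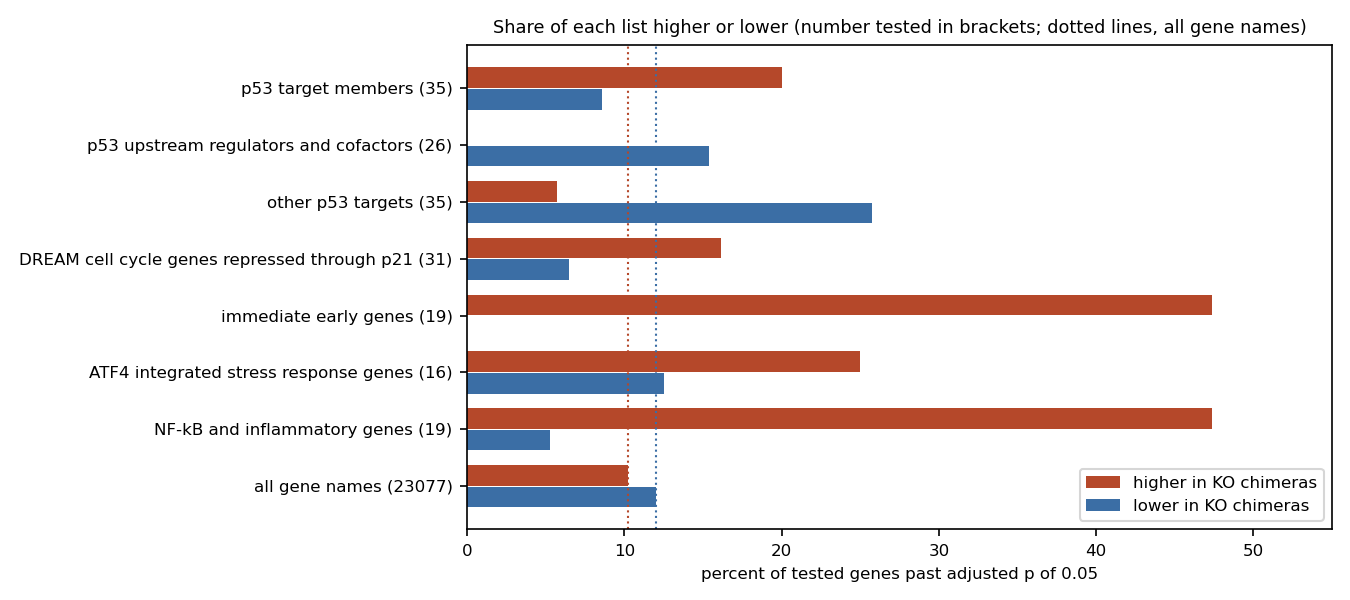
Share of the tested genes of each list that were higher (red) or lower (blue) in KO chimeras at an adjusted p under 0.05, in percent, with the number tested in brackets and dotted lines at the shares of all gene names. The members had 20% higher and 8.57% lower, and the immediate early and NF-kB lists each had 47.4% higher.

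Markers of marrow cell types were counted too, beside 10.2% higher and 12% lower over all gene names. Shares lower were 75% for megakaryocyte, 66.7% for macrophage, 57.1% for plasma cell, 54.5% for T cell and 50% for stem and progenitor markers. Endothelial, NK and monocyte markers had 40%, 22.2% and 20% lower. Shares higher were 40% for monocyte, 25% for B lineage and 20% for endothelial markers. Those of bone and fat (12.5%), NK (11.1%), stem and progenitor (10%) and T cell markers (9.09%) lay near the share of all gene names. Of 12 megakaryocyte markers 9 were lower and 0 higher by limma (0 at an unadjusted p under 0.05), with summed signals of 23.6 to 56.1 in KO chimeras and 45.02 to 84.0 in controls. Of 9 macrophage markers 6 were lower and 0 higher (0 at an unadjusted p under 0.05), with sums of 6.99 to 12.2 in KO chimeras and 11.2 to 18.7 in controls. T cell markers had 6 of 11 lower and 1 higher (sums of 30.8 to 49.98 in KO chimeras and 38.7 to 82.4 in controls). Their median sum was higher in KO chimeras, at 46.4 against 40.2, so the sums did not follow the count of lower markers. The higher marker, Cd3d, differed by 2.18 ± 0.11 (limma adjusted p = 4.93e-10), the smallest p of the list. Plasma cell markers had 4 of 7 lower (57.2 to 88.3 in KO chimeras and 89.5 to 155 in controls). Stem and progenitor markers had 5 of 10 lower and 1 higher (33.8 to 46.0 in KO chimeras and 40.03 to 58.2 in controls). Monocyte markers had 4 of 10 higher and 2 lower (233 to 402 in KO chimeras and 218 to 283 in controls). Klf4 and Nr4a1 are counted both among these higher markers and among the higher immediate early genes. B lineage markers had 3 of 12 higher (60.7 to 139 in KO chimeras and 50.2 to 135 in controls). None of the 13 neutrophil and 12 erythroid markers passed in limma, with 1 of each at an unadjusted p under 0.05. Neutrophil sums were 3015 to 4562 in KO chimeras and 3223 to 3777 in controls, and erythroid sums 1400 to 2273 in KO chimeras and 1284 to 2318 in controls. NK markers had 1 of 9 higher and 2 lower, and endothelial markers 1 of 5 higher and 2 lower. Some lower markers were kept through the controls alone, so the size of their difference is not measured. These were Klrk1 (NK, above background on 2 KO chimera and 8 control arrays), Flt4 (endothelial, 0 and 6), Cdh5 (endothelial, 5 and 8) and Gp6 (megakaryocyte, 5 and 8). Bone and fat markers had 1 of 8 higher and 0 lower. The part of cell composition in the members' differences was not tested, and in whole marrow fewer cells of a type and less RNA per cell cannot be told apart.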

How the data were processed

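Per the labels' protocols, bone marrow RNA of 16 mice was read in 1 colour (Cy3), each mouse on its own array. Spots were quantified with Agilent Feature Extraction; its version is 10.7 in the submitters' processing notes and 10.1.1.1 in the file headers. Spot intensity in the deposited scanner files is linear, with the background already taken off by that software, as their headers state. The authors' deposited value table holds log2 values, which correlated with the log2 scanner signal of their array at 0.991 or more and were used as an alternative. The labels' descriptions hint at quantile normalization, and their centring is unknown.

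Log2 of the processed signal was set relative to the 75th percentile of the array, control spots excepted. Spots marked as outliers were dropped, and saturation occurred in none. A probe was kept if 6 or more of a group's 8 arrays had it well above background, which held for 32713 of 55681, and each gene name was read from its kept probe with the highest mean, if it had at least 3 values per group. The comparison used limma (version 3.58.1, under R 4.3.3), with lmFit and eBayes and two-sided p adjusted by Benjamini-Hochberg over 23077 gene names. Sample titles gave each mouse's group and number. By their headers the arrays lay on 6 slides, of which 5 carried KO chimeras and controls, and each of the 2 scan days had 4 arrays of each group.

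All members are accounted for. From each pathway list the 3 genes with the smallest p among those called are named. The marker lists are given as counts and summed signals, with a few called genes named. The members and lists were chosen with earlier results of these data known. Positions of probes follow the files' own mm9 coordinates, with no exon annotation of that build, and promoters come from RefSeq (GRCm38.p6), matched by symbol for 28 of the 36 members. The fit was checked on simulated data. Alternatives covered normalization, background correction, the filter on dim probes, the probe per gene, slide, scan day, replicate number, array brightness, the variance model, the threshold and leaving out each mouse. Array number limits the precision.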

Additional observations from a re-analysis of the deposited data

Results flagged for a closer look

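In each group of 8 mice the highest or lowest value was set against the others by Dixon's gap ratio, for the 42 tested probes of the members. Of 84 groups, 6 held a mouse that stood apart, where chance marks about 1 group in 20.

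Control 8 had a Sesn2 level of 3.90, against 1.80 to 2.19 in the other controls. KO chimera 7 had a Perp level of 1.45, against -1.23 to -0.029 in the other KO chimeras, and without it the difference of Perp was -0.079 ± 0.20 (limma adjusted p = 0.816), of the opposite sign. KO chimera 4 had an Apaf1 level of 1.31, against 0.35 to 0.71 in the other KO chimeras, and without it the difference was 0.13 ± 0.10 (limma adjusted p = 0.366). Control 5 had a Psrc1 level of -0.45, against -0.034 to 0.19 in the other controls, and without it the difference was -0.062 ± 0.11 (limma adjusted p = 0.750). Control 5 also had a level of -0.079 on the dimmer Steap3 probe, against 1.20 to 1.55 in the other controls. Control 3 had a level of 0.28 on the dimmer Ephx1 probe, against 0.47 to 0.63 in the other controls. None of the genes Sesn2, Perp, Apaf1 and Psrc1 passed in limma with or without these mice.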

How the results depend on the processing

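Phlda3 and Bbc3 were called under all 34 alternatives, Cdkn1a, Mdm2 and Ei24 under 33, Trp53 under 32, Gadd45a under 31, Ccng1 under 22, Ephx1 under 17 and Polk under 15. Within scan day 1, 1609 gene names (6.98%) and 4 members (3 higher, 1 lower) were called, and within scan day 2, 2315 (10%) and 4 members (4 higher, 0 lower), with 4 mice per group. At an adjusted p under 0.01, 2997 gene names and 1 lower member passed. Without the 5 dim arrays 3639 gene names and 6 members passed, with 0 of these members lower. With no filter on dim probes 1 lower member passed. With the mean of its probes Steap3 was lower, at -0.88. Leaving out 1 mouse at a time gave 4397 to 5327 gene names, 7 to 10 members, 6 to 8 of them higher and 1 to 4 lower. With the replicate number as a block, 4732 gene names and 10 members (8 higher, 2 lower) passed. Same-numbered mice did not pair: their deviations correlated at -0.19 to 0.20, and 1 of 8 matched its own number best. The scan days hold fewer mice, and the cause of the shifts between alternatives, those within scan days included, was not tested. The 35 tested members were above background on all 16 arrays, and Eda2r is left unmeasured. With normexp background correction and quantile normalization Phlda3 differed by 1.60, Ei24 by 0.34 and Trp53 by -0.42, against 2.07, 0.47 and -0.58 in the main fit. These 3 were still called, while Polk was not. The part of background in the members' differences was not tested.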
